A study of Mus musculus with 3 samples.

Results

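Mesothelial cells form the sheet that covers the surface of the heart. In the adult they are the epicardium, an epithelium that lies on a basement membrane, faces the pericardial fluid with a mucin-bearing surface, and carries keratins beside the transcription factors of the embryonic epicardium. The cells described here were taken from a single-cell RNA sequencing study of dissociated mouse hearts. They were chosen by their own RNA. A barcode was a member when at least 2 of the 3 genes Msln, Krt19 and Upk3b had a UMI (a unique molecular identifier, which counts 1 captured RNA molecule), when it held at least 1 UMI over Muc16, Pcdh15, Upk1b and Wt1, and when it held at most 1 UMI over Pdgfra, Csf1r, Cdh5 and Abcc9, which mark fibroblasts, macrophages, endothelial cells and pericytes. Of 38646 barcodes in all, 1234 met the rule.

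The hearts came from male C57/B6J mice of 3 genotypes. Myh6-R404Q carries a point mutation in the alpha cardiac myosin heavy chain, Prkag2-p.R299Q one in a regulatory subunit of the energy sensor AMPK, and WT neither. The labels call both mutants models made by point mutation and the series title calls the mice HCM mice, for hypertrophic cardiomyopathy. UMI counts per gene cannot show a point mutation, so the counts give no check of these labels. There was 1 library per genotype, the labels do not say how many hearts a library holds, and the age was not given in the sources used here. Every interval below is a 95% interval for counting error alone and says nothing about the spread between animals or between members. No test between genotypes was possible, and genotype and library cannot be told apart.

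The rule found 642 members among 12662 Myh6-R404Q barcodes, 319 among 7951 Prkag2-p.R299Q barcodes and 273 among 18033 WT barcodes. The members held 2353009 UMIs in the Myh6-R404Q library, 1336183 in the Prkag2-p.R299Q library and 785792 in the WT library. Their median depth was 3214.5 UMIs in the Myh6-R404Q library, 3685 in the Prkag2-p.R299Q library and 2514 in the WT library, above the median of all barcodes in each library, which was 2043 UMIs in the Myh6-R404Q library, 2537 UMIs in the Prkag2-p.R299Q library and 1559 UMIs in the WT library. The libraries shared 28 to 51 barcode sequences in pairs. Scrublet, which scores barcodes against simulated doublets, marked 14.0% of Myh6-R404Q members, 8.46% of Prkag2-p.R299Q members and 19.0% of WT members as doublets, and they were kept because the rule did not use that score. Over all barcodes it marked 16.6% in the Myh6-R404Q library, 14.0% in the Prkag2-p.R299Q library and 17.8% in the WT library.

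Promoter sequence is shown for 3 genes, since Upk3b is one of the genes of the rule and C3 and Igfbp6 are the mesothelial identity genes called higher in both mutant libraries. Each line holds the 250 bases upstream of the RefSeq gene start (GRCm38.p6), 5′ to 3′ on the strand of the gene. Capitals mark a match to 1 of 4 short motifs searched on both strands, which were TGANTCA for AP-1, GGAATG for TEAD, TATAAA for the core promoter box of that name and GGGCGG for SP and KLF factors.
Upk3b, chr5:136038246-136038495, plus strand: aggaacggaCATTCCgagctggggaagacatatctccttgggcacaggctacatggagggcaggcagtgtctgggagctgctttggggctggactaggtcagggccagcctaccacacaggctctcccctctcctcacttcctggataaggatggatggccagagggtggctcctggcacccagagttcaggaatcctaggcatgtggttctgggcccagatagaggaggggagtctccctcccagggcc
C3, chr17:57228137-57228386, minus strand: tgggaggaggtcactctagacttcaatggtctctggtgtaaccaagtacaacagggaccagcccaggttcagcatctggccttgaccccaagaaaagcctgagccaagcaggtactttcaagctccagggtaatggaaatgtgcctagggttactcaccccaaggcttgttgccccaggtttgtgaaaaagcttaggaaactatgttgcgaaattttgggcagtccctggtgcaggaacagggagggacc
Igfbp6, chr15:102143936-102144185, plus strand: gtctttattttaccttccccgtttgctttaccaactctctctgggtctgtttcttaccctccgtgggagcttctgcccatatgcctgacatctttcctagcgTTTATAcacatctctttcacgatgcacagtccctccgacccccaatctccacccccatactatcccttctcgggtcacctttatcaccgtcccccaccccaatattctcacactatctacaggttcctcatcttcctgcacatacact
The Upk3b window held 1 TEAD match, a motif present in 12.6% of 32851 promoter windows of this length. The Igfbp6 window held 1 match to TATAAA, present in 12.4% of windows. The C3 window held none of the 4 motifs, of which that for AP-1 is found in 6.75% of windows and that for SP and KLF factors in 32.7%. A match here is a run of letters, and neither a match nor its absence says whether a factor binds. Msln, Krt19, Rarres2, Wt1 and Upk1b are named without sequence.

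The share of barcodes that were members was higher in both mutant libraries. Members made up 5.07% of Myh6-R404Q barcodes (4.69 to 5.47), 4.01% of Prkag2-p.R299Q barcodes (3.59 to 4.47) and 1.51% of WT barcodes (1.34 to 1.70). The ratio to WT was 3.35 (2.91 to 3.85) for Myh6-R404Q and 2.65 (2.26 to 3.11) for Prkag2-p.R299Q, and both ratios use the same WT library. The rule asks for UMIs, and the WT barcodes were the shallowest, so the rule was repeated after every barcode had been thinned at random to 1000 UMIs. The shares were then 2.11% in the Myh6-R404Q library, 1.66% in the Prkag2-p.R299Q library and 0.587% in the WT library, with ratios to WT of 3.58 (2.79 to 4.61) for Myh6-R404Q and 2.83 (2.14 to 3.75) for Prkag2-p.R299Q. The barcodes deep enough to thin were 11068 in the Myh6-R404Q library, 7101 in the Prkag2-p.R299Q library and 13793 in the WT library. The order of the libraries was the same at equal depth. A share of barcodes also depends on what the dissociation released, on loading and on how many other cells were captured, and these cannot be told apart from the size of the epicardium.

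The size of that ratio depended on whether Msln, Krt19 and Upk3b took part in the choice. A second set was chosen after seeing the data without those genes, from 2 or more UMIs of Pcdh15, at least 1 UMI over Wt1, Muc16, Upk1b and Bnc1 and the same limit on the other types. It held 1012 barcodes (7.99%) of the Myh6-R404Q library, 419 (5.27%) of the Prkag2-p.R299Q library and 663 (3.68%) of the WT library. The ratio to WT was 2.17 (1.98 to 2.39) for Myh6-R404Q and 1.43 (1.27 to 1.62) for Prkag2-p.R299Q, and after thinning it was 1.81 (1.60 to 2.05) for Myh6-R404Q and 1.23 (1.06 to 1.44) for Prkag2-p.R299Q. Mesothelial barcodes were still a larger share of both mutant libraries, by a smaller ratio. This set held 480 of the Myh6-R404Q members (74.8%), 253 of the Prkag2-p.R299Q members (79.3%) and 215 of the WT members (78.8%).

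**Figure D1:**
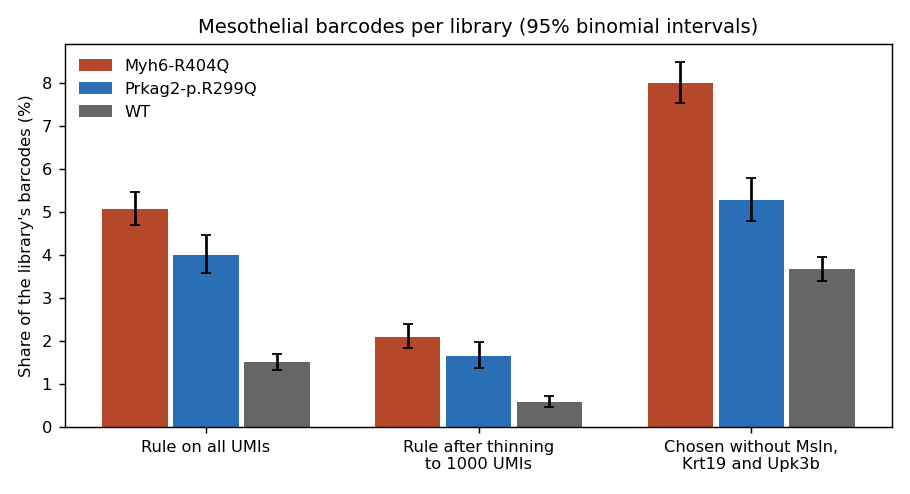
Share of each library's barcodes (%, vertical axis) that were mesothelial under 3 ways of choosing them, with bars for Myh6-R404Q, Prkag2-p.R299Q and WT and 95% binomial intervals for counting error. Myh6-R404Q has the tallest bar and WT the shortest under each, from 5.07% against 1.51% by the rule to 7.99% against 3.68% without Msln, Krt19 and Upk3b.

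In the set chosen without them, the level of the 3 marker genes could be read without their part in the choice. Msln, which encodes the surface protein mesothelin, had 413 CPM (UMIs scaled to a total of 1000000 UMIs for the set) in the Myh6-R404Q library, 514 CPM in the Prkag2-p.R299Q library and 259 CPM in the WT library. Its fold over WT was 1.59 (1.43 to 1.77) for Myh6-R404Q and 1.98 (1.77 to 2.23) for Prkag2-p.R299Q. Krt19, a keratin of simple epithelia, had 166 CPM in the Myh6-R404Q library, 172 CPM in the Prkag2-p.R299Q library and 89.2 CPM in the WT library. Its fold was 1.86 (1.56 to 2.24) for Myh6-R404Q and 1.92 (1.58 to 2.36) for Prkag2-p.R299Q. Upk3b, a uroplakin that is a usual mesothelial marker, had 423 CPM in the Myh6-R404Q library, 465 CPM in the Prkag2-p.R299Q library and 297 CPM in the WT library, with folds of 1.42 (1.29 to 1.58) for Myh6-R404Q and 1.57 (1.40 to 1.75) for Prkag2-p.R299Q. All 3 were higher in both mutant libraries by 1.42-fold to 1.98-fold, in cells that these genes had not selected.

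Mesothelial barcodes that missed the rule are the nearest neighbours of the members. The low-Msln set holds barcodes with the same Pcdh15 and second-group requirement that had at most 1 of Msln, Krt19 and Upk3b. It counted 532 Myh6-R404Q, 166 Prkag2-p.R299Q and 448 WT barcodes. Members were 54.7% of both sets together in the Myh6-R404Q library, 65.8% in the Prkag2-p.R299Q library and 37.9% in the WT library. With the rule applied after thinning they were 31.9% in the Myh6-R404Q library, 36.3% in the Prkag2-p.R299Q library and 17.8% in the WT library. WT was lowest both times.

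The levels of the genes of the rule describe the choice and support nothing. Msln had 691 CPM in Myh6-R404Q members, 715 CPM in Prkag2-p.R299Q members and 458 CPM in WT members. Krt19 had 277 CPM in Myh6-R404Q members, 251 CPM in Prkag2-p.R299Q members and 201 CPM in WT members. Upk3b had 663 CPM in Myh6-R404Q members, 644 CPM in Prkag2-p.R299Q members and 568 CPM in WT members. Msln showed the widest gap between genotypes of the 3, and WT was lowest for each. Among the second group, Muc16, the large membrane mucin known as CA125, had 2278 CPM in Myh6-R404Q members, 2806 CPM in Prkag2-p.R299Q members and 2484 CPM in WT members. Pcdh15, a protocadherin best known from hair cells of the inner ear, had 1561 CPM in Myh6-R404Q members, 1911 CPM in Prkag2-p.R299Q members and 1881 CPM in WT members. Wt1, the zinc finger factor of the epicardium and of podocytes, had 707 CPM in Myh6-R404Q members, 698 CPM in Prkag2-p.R299Q members and 774 CPM in WT members. Those 3 had folds over WT between 0.83 and 1.13. Upk1b, a uroplakin of the tetraspanin family, had 501 CPM in Myh6-R404Q members, 630.2 CPM in Prkag2-p.R299Q members and 409 CPM in WT members, where Prkag2-p.R299Q stood above the other libraries.

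All 3 of Msln, Krt19 and Upk3b were detected together in 39.3% of Myh6-R404Q members, 39.8% of Prkag2-p.R299Q members and 15.02% of WT members. The commonest pair was Msln with Upk3b and no Krt19, in 37.7% of Myh6-R404Q members, 41.4% of Prkag2-p.R299Q members and 54.6% of WT members. All 4 genes of the second group were detected in 55.8% of Myh6-R404Q members, 63.0% of Prkag2-p.R299Q members and 42.5% of WT members. WT members, the shallowest, more often held just 2 of the 3 markers. Msln had a UMI in 87.9% of Myh6-R404Q members, 90.6% of Prkag2-p.R299Q members and 82.8% of WT members. Fibroblast barcodes, which should lack Msln, had a Msln UMI in 7.12% of them in the Myh6-R404Q library, 4.36% in the Prkag2-p.R299Q library and 1.85% in the WT library. The median depth of these fibroblast barcodes was 2181 UMIs in the Myh6-R404Q library, 2800 UMIs in the Prkag2-p.R299Q library and 1838 UMIs in the WT library.

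**Figure D2:**
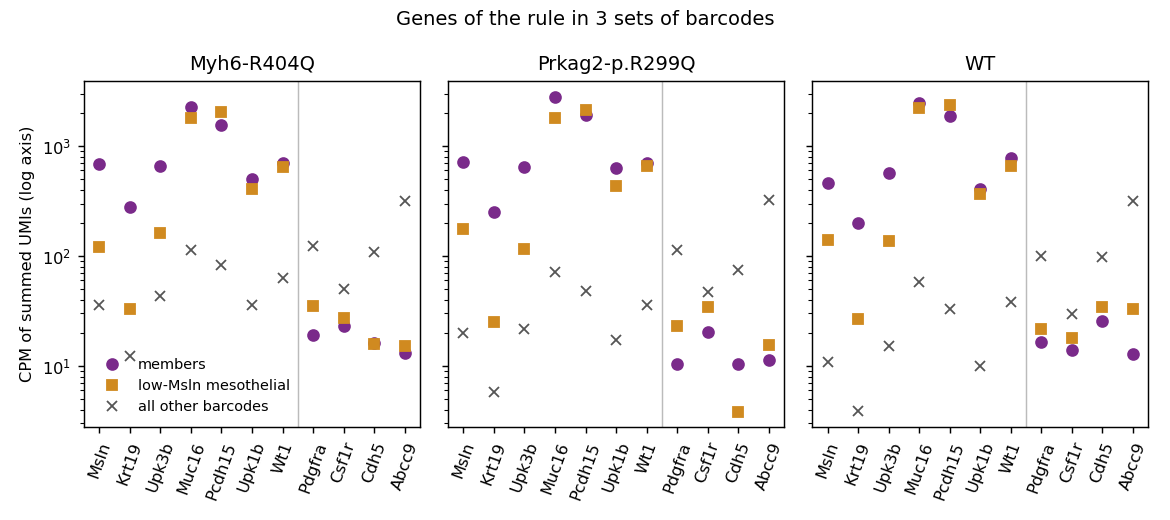
Level of the 11 genes of the rule (CPM of summed UMIs, log axis) in members, low-Msln mesothelial barcodes and all other barcodes, with a panel each for Myh6-R404Q, Prkag2-p.R299Q and WT. The rule sets most of these positions; Muc16, Pcdh15, Upk1b and Wt1 are close together in members and low-Msln barcodes, while Msln, Krt19 and Upk3b differ between them.

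Around the limits of the rule the values were as follows. In Myh6-R404Q, barcodes with exactly 2 of the 3 markers had 528 CPM of Msln and 2273 CPM of C3, while barcodes just outside with 1 marker had 186 CPM of Msln and 959 CPM of C3. In Prkag2-p.R299Q the barcodes inside had 649 CPM of Msln and 3331 CPM of C3, and those outside had 271 CPM of Msln and 1213 CPM of C3. In WT the barcodes inside had 427 CPM of Msln and 1288 CPM of C3, and those outside had 281 CPM of Msln and 648 CPM of C3. Barcodes just outside through 2 UMIs of other-type genes still had 423 CPM of Msln in the Myh6-R404Q library, 634 CPM in the Prkag2-p.R299Q library and 296 CPM in the WT library. Their C3 was 1428 CPM in the Myh6-R404Q library, 3865 CPM in the Prkag2-p.R299Q library and 1065 CPM in the WT library. C3, which the rule did not name, was lower just outside the marker limit in all 3 libraries.

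Genes outside the rule stood far higher in members than in barcodes that are neither members nor low-Msln, called the rest here. Of 3718 genes with at least 50 CPM in members of every library, 267 (7.18%) were at least 4-fold above the rest of their own library in all 3. The cells were picked by their RNA, so this is a description without a test. The 20 genes furthest above the rest included transporters. Slc26a3, a chloride and bicarbonate exchanger, was above the rest by 20.8-fold in the Myh6-R404Q library, 37.7-fold in the Prkag2-p.R299Q library and 41.0-fold in the WT library. Cftr, the chloride channel mutated in cystic fibrosis, was above by 15.7-fold in the Myh6-R404Q library, 32.3-fold in the Prkag2-p.R299Q library and 31.8-fold in the WT library. Slc39a8, a zinc and manganese importer, was above by 14.9-fold in the Myh6-R404Q library, 33.3-fold in the Prkag2-p.R299Q library and 35.5-fold in the WT library. The others of this kind were Nkain4, which interacts with the sodium pump, Atp6v0a4, a subunit of the proton pump, and Cybrd1, a ferric reductase. Each of these 6 genes had 10.5 CPM or less in the WT rest. Low-Msln barcodes held them near the members' level in WT, where members over low-Msln barcodes ran from 0.86-fold for Atp6v0a4 to 1.26-fold for Slc39a8. In the mutant libraries the range was 0.95-fold for Cftr in Myh6-R404Q to 2.42-fold for Nkain4 in Prkag2-p.R299Q.

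Receptors and adhesion genes formed the next group. Lrp2, the endocytic receptor megalin, was above the rest by 17.6-fold in the Myh6-R404Q library, 32.4-fold in the Prkag2-p.R299Q library and 37.1-fold in the WT library. Cdh3, or P-cadherin, was above by 19.1-fold in the Myh6-R404Q library, 33.5-fold in the Prkag2-p.R299Q library and 52.8-fold in the WT library, and Cdh8, a neuronal type II cadherin, by 18.3-fold in the Myh6-R404Q library, 37.4-fold in the Prkag2-p.R299Q library and 48.8-fold in the WT library. Bmpr1b, a receptor of bone morphogenetic proteins, was above by 17.1-fold in the Myh6-R404Q library, 37.8-fold in the Prkag2-p.R299Q library and 33.7-fold in the WT library. Over low-Msln barcodes these 4 genes were at 0.95-fold, for Cdh8 in Myh6-R404Q, to 1.59-fold, for Cdh3 in Prkag2-p.R299Q. Chst4, Cyp2s1, Sema3e, Synpr, Wwc1, Dpysl5, Exph5, Fam83b, Styk1 and Vsnl1 made up the remainder. The ratio to the rest was smaller in Myh6-R404Q than in the other 2 libraries for each of these 4 named receptors and cadherins, and the level in the rest was higher there, as Lrp2 had 21.6 CPM in the Myh6-R404Q library, 9.75 CPM in the Prkag2-p.R299Q library and 6.76 CPM in the WT library in all other barcodes.

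**Figure D3:**
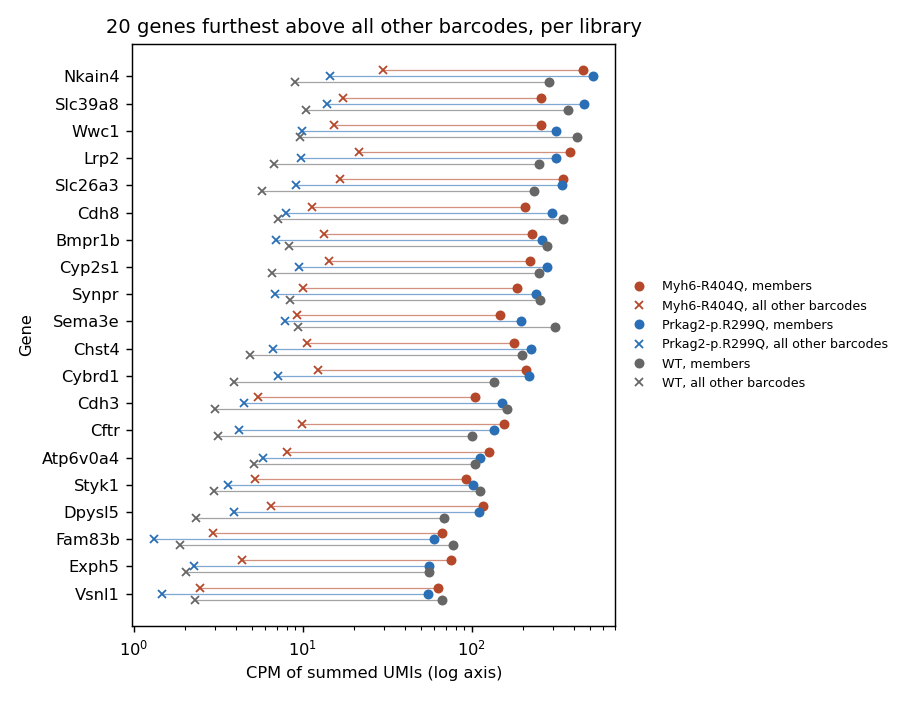
The 20 genes outside the rule with the highest smallest ratio to the rest, with members as circles joined to all other barcodes as crosses (CPM, log axis), coloured for Myh6-R404Q, Prkag2-p.R299Q and WT. The crosses of Myh6-R404Q lie to the right of those of the other libraries for most genes, as for Nkain4 at 29.8 CPM in Myh6-R404Q against 9.03 CPM in WT.

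The epicardial transcription factors were detected in members, and none was called different between genotypes. A gene was called when it had at least 50 CPM in either library, a fold of at least 2 and an interval lying wholly beyond 1.5-fold. Of 18 factors listed, 13 reached the level for testing and none passed in either comparison. Over all tested genes 0.961% were called higher and 0.742% lower for Myh6-R404Q, and 1.14% and 1.25% for Prkag2-p.R299Q. With shares that small, the lack of a call among 13 genes says little about the factors. Bnc2, a basonuclin, had 1373 CPM in Myh6-R404Q members, 1164 CPM in Prkag2-p.R299Q members and 1218 CPM in WT members. Tbx18, a T-box factor of the embryonic epicardium, had 215 CPM in Myh6-R404Q members, 199 CPM in Prkag2-p.R299Q members and 187 CPM in WT members. Gata4 had 243 CPM in Myh6-R404Q members, 207 CPM in Prkag2-p.R299Q members and 197 CPM in WT members. Bnc1, the other basonuclin, had 198 CPM in Myh6-R404Q members, 165 CPM in Prkag2-p.R299Q members and 122 CPM in WT members, and its fold over WT was 1.62 (1.30 to 2.04) for Myh6-R404Q and 1.35 (1.06 to 1.73) for Prkag2-p.R299Q. Meis1, Meis2 and Sox6 were also well above the level for testing, and the median log2 difference of the 13 was 0.13 for Myh6-R404Q and 0.025 for Prkag2-p.R299Q, against 0.0026 and -0.017 over all genes tested.

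Keratins and junction genes likewise stayed below the call. None of 20 tested members of that list was called in either comparison, with medians on the log2 scale of -0.017 for Myh6-R404Q and -0.015 for Prkag2-p.R299Q. Krt18, which pairs with Krt8 in simple epithelia, had 137 CPM in Myh6-R404Q members, 171 CPM in Prkag2-p.R299Q members and 112 CPM in WT members. Krt8 had 109 CPM in Myh6-R404Q members, 156 CPM in Prkag2-p.R299Q members and 111 CPM in WT members. The list also held Ctnna1, Pard3, Ctnnd1 and Cgnl1, which serve adherens and tight junctions. Their levels in members were 0.92 to 1.22 times those of all other barcodes, apart from Cgnl1 at 2.03 times in the Prkag2-p.R299Q library. Of the basement membrane genes none of the 16 tested was called for Myh6-R404Q and none of the 15 for Prkag2-p.R299Q. Fras1, a basement membrane protein of developing epithelia, had 336 CPM in Myh6-R404Q members, 424 CPM in Prkag2-p.R299Q members and 309 CPM in WT members, and Col4a4 had 287 CPM in Myh6-R404Q members, 339.8 CPM in Prkag2-p.R299Q members and 302 CPM in WT members. No gene of either structural list was called. Since 0.742% to 1.25% of all tested genes were called per direction and comparison, this says little for lists of this size.

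Of 26 mesothelial identity genes outside the rule, 20 were tested and 2 were called higher in each mutant library, which were C3 and Igfbp6, against 0.961% of all tested genes for Myh6-R404Q and 1.14% for Prkag2-p.R299Q. Their medians were 0.22 for Myh6-R404Q and 0.34 for Prkag2-p.R299Q on the log2 scale. Gpm6a, a membrane glycoprotein, had 3202 CPM in Myh6-R404Q members, 2814 CPM in Prkag2-p.R299Q members and 2713 CPM in WT members. Efemp1, the matrix protein fibulin 3, had 867 CPM in Myh6-R404Q members, 909 CPM in Prkag2-p.R299Q members and 878 CPM in WT members. Ezr, or ezrin, which ties microvilli to actin, had 751 CPM in Myh6-R404Q members, 754 CPM in Prkag2-p.R299Q members and 569 CPM in WT members. Gpm6a, Efemp1 and Ezr had folds over WT between 0.99 and 1.33. Nkain4 had 456 CPM in Myh6-R404Q members, 524 CPM in Prkag2-p.R299Q members and 288 CPM in WT members, with folds of 1.59 (1.37 to 1.84) for Myh6-R404Q and 1.82 (1.57 to 2.13) for Prkag2-p.R299Q. Calb2, or calretinin, and Mgarp had no UMI in members of any library, which allows up to 1.27 CPM in the Myh6-R404Q library, 2.25 CPM in the Prkag2-p.R299Q library and 3.82 CPM in the WT library.

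By UMIs alone, without correction for gene length, Malat1, Rbfox1 and Wdr17 ranked 1 to 3 in members of each library, and they were picked out after their values were seen. Rbfox1, an RNA splicing factor known from neurons and muscle, had 14468 CPM in Myh6-R404Q members, 16118 CPM in Prkag2-p.R299Q members and 17892 CPM in WT members. All other barcodes had 1209.7 CPM in the Myh6-R404Q library, 775 CPM in the Prkag2-p.R299Q library and 666 CPM in the WT library. Wdr17 had 14364 CPM in Myh6-R404Q members, 12042 CPM in Prkag2-p.R299Q members and 12114 CPM in WT members, and all other barcodes had 1280.0 CPM in the Myh6-R404Q library, 559 CPM in the Prkag2-p.R299Q library and 571 CPM in the WT library. Low-Msln barcodes were near the level of members for both genes, with 14638 CPM in the Myh6-R404Q library, 14354 CPM in the Prkag2-p.R299Q library and 17188 CPM in the WT library for Rbfox1. The annotated gene spans 1526.17 kb for Rbfox1 (chr16:5885355-7411526, GRCm38) and 258.13 kb for Wdr17, and the counts do not tell exonic from intronic reads.

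The genotype comparison over all genes gave few calls. Of 4580 genes tested between Myh6-R404Q and WT members, 44 (0.961%) were called higher and 34 (0.742%) lower. Of 4556 tested between Prkag2-p.R299Q and WT, 52 (1.14%) were called higher and 57 (1.25%) lower. The same WT members stand in both comparisons, with 23 genes called higher in both, 21 lower in both and 0 called in opposite directions. Among members with exactly 2 markers, a comparison added after seeing the data, 16 genes were called higher and 27 lower for Myh6-R404Q, and 26 higher and 40 lower for Prkag2-p.R299Q. The same rule was run outside the members. In low-Msln barcodes 25 of 4549 genes (0.55%) were called higher and 14 (0.308%) lower for Myh6-R404Q over WT, and 16 of 4532 (0.353%) higher and 12 (0.265%) lower for Prkag2-p.R299Q over WT. In all other barcodes 26 of 4529 genes (0.574%) were called higher and 12 (0.265%) lower for Myh6-R404Q, and 4 of 4386 (0.0912%) higher and 13 (0.296%) lower for Prkag2-p.R299Q. Of the 44 genes called higher in Myh6-R404Q members, 43 were above WT in low-Msln barcodes as well and 10 were called there. Of the 52 for Prkag2-p.R299Q, 47 were above WT and 4 were called. Among the genes called lower, 34 of 34 for Myh6-R404Q and 40 of 57 for Prkag2-p.R299Q were below WT in low-Msln barcodes. There 9 were called lower for Myh6-R404Q and 4 for Prkag2-p.R299Q. The share of all tested genes on the same side in both sets is not given here. No gene was called in opposite directions in members and low-Msln barcodes.

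The genes called lower were mostly ones at a lower level in members than in the rest, in both libraries compared, 25 of 34 for Myh6-R404Q and 53 of 57 for Prkag2-p.R299Q. For the genes called higher this was so for 2 of 44 in Myh6-R404Q members and 0 of 52 in Prkag2-p.R299Q members. The share of all tested genes at a lower level in members than in the rest is not given here, so these counts stand without a background.

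Complement and innate defence had more genes called higher in Prkag2-p.R299Q than any other of the 26 lists. C3, the central component of the cascade (chr17:57203970-57228136, minus strand), had 7678 UMIs or 3263 CPM (95% interval 3190.5 to 3337) in Myh6-R404Q members, 6250 UMIs or 4678 CPM (95% interval 4562 to 4795) in Prkag2-p.R299Q members and 1177 UMIs or 1498 CPM (95% interval 1413 to 1586) in WT members. Every interval was separate from the other 2. These intervals treat UMIs as independent and are too narrow for the spread between members. At 1000 UMIs per member the variance of C3 over its mean was 4.09 for Myh6-R404Q, 6.61 for Prkag2-p.R299Q and 3.18 for WT. The fold over WT was 2.18 (2.05 to 2.32) for Myh6-R404Q and 3.12 (2.93 to 3.33) for Prkag2-p.R299Q. By UMIs C3 ranked 7 in Myh6-R404Q members, 4 in Prkag2-p.R299Q members and 33 in WT members. C3 was higher in members with more markers, and all 3 markers were commoner in the mutant libraries. At exactly 2 markers the fold was 1.77 (1.63 to 1.91) for Myh6-R404Q, which is under the call, and 2.59 (2.39 to 2.81) for Prkag2-p.R299Q. With all 3 markers C3 had 4501 CPM in Myh6-R404Q members, 6072 CPM in Prkag2-p.R299Q members and 2379 CPM in WT members, and the fold was 1.89 (1.70 to 2.11) for Myh6-R404Q, again under the call, and 2.55 (2.29 to 2.85) for Prkag2-p.R299Q. In the set chosen without Msln, Krt19 and Upk3b it had 2266 CPM in the Myh6-R404Q library, 3411 CPM in the Prkag2-p.R299Q library and 930.1 CPM in the WT library, with folds of 2.44 (2.31 to 2.57) for Myh6-R404Q and 3.67 (3.47 to 3.88) for Prkag2-p.R299Q.

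C3 also differed outside the members. Low-Msln barcodes had 1035 CPM in the Myh6-R404Q library, 1134 CPM in the Prkag2-p.R299Q library and 588 CPM in the WT library, and all other barcodes had 255 CPM in the Myh6-R404Q library, 233 CPM in the Prkag2-p.R299Q library and 126 CPM in the WT library. In those other barcodes the fold over WT was 2.02 for Myh6-R404Q and 1.85 for Prkag2-p.R299Q. Fibroblast barcodes had 352 CPM in the Myh6-R404Q library, 349 CPM in the Prkag2-p.R299Q library and 213 CPM in the WT library and macrophage barcodes 224 CPM in the Myh6-R404Q library, 267 CPM in the Prkag2-p.R299Q library and 87.6 CPM in the WT library. Members were above all of these in every library, and how much of the level in the other types is free RNA from mesothelial cells was not tested.

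Of 32 complement and innate defence genes, 16 were tested. For Myh6-R404Q, 2 were called higher, against 0.961% of all tested genes. For Prkag2-p.R299Q, 6 were called higher, against 1.14%, and none was called lower in either. The median log2 difference was 0.34 for Myh6-R404Q and 0.56 for Prkag2-p.R299Q. Serping1, the C1 inhibitor, had 486 CPM in Myh6-R404Q members, 524 CPM in Prkag2-p.R299Q members and 238 CPM in WT members, with folds over WT of 2.04 (1.75 to 2.40) for Myh6-R404Q and 2.20 (1.87 to 2.60) for Prkag2-p.R299Q. C4b, a C4 component, had 198 CPM in Myh6-R404Q members, 309 CPM in Prkag2-p.R299Q members and 108 CPM in WT members. Its fold was 1.83 (1.45 to 2.33) for Myh6-R404Q, which was not called, and 2.86 (2.26 to 3.65) for Prkag2-p.R299Q. In all other barcodes C4b ran the other way, at 0.61-fold of WT in Myh6-R404Q and 0.66-fold for Prkag2-p.R299Q.

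Further genes of the list were complement proteases. C2, a protease of the classical and lectin routes, had 173 CPM in Myh6-R404Q members, 223 CPM in Prkag2-p.R299Q members and 102 CPM in WT members. C1ra, the mouse C1r protease, had 126 CPM in Myh6-R404Q members, 156 CPM in Prkag2-p.R299Q members and 68.7 CPM in WT members. Cfb, the protease of the alternative pathway, had 80.7 CPM in Myh6-R404Q members, 133 CPM in Prkag2-p.R299Q members and 62.4 CPM in WT members. Each of these was called in Prkag2-p.R299Q, with folds over WT of 2.19 for C2, 2.27 for C1ra and 2.14 for Cfb. In Myh6-R404Q, where none of them was called, the folds were 1.70 for C2, 1.84 for C1ra and 1.29 for Cfb. Cd200, an inhibitory ligand for myeloid cells, had 298 CPM in Myh6-R404Q members, 287 CPM in Prkag2-p.R299Q members and 283 CPM in WT members, close to equal in the 3 libraries. Whether Prkag2-p.R299Q differs from Myh6-R404Q in these genes was not tested, since each genotype has 1 library.

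Retinoic acid genes were next. Rarres2, which encodes the chemoattractant chemerin (chr6:48569696-48572789, minus strand), had 2875 UMIs or 1222 CPM (95% interval 1178 to 1267) in Myh6-R404Q members, 1577 UMIs or 1180.2 CPM (95% interval 1123 to 1240.0) in Prkag2-p.R299Q members and 414 UMIs or 527 CPM (95% interval 477 to 580.1) in WT members. Its fold over WT was 2.32 (2.09 to 2.58) for Myh6-R404Q and 2.24 (2.01 to 2.50) for Prkag2-p.R299Q, while in all other barcodes the fold was 3.32 for Myh6-R404Q and 1.65 for Prkag2-p.R299Q. Aldh1a2, which makes retinoic acid in the embryonic epicardium, had 415 CPM in Myh6-R404Q members, 433 CPM in Prkag2-p.R299Q members and 397 CPM in WT members. Aldh1a1 had 391 CPM in Myh6-R404Q members, 458 CPM in Prkag2-p.R299Q members and 386 CPM in WT members. At exactly 2 markers the fold of Rarres2 was 1.82 for Myh6-R404Q and 1.86 for Prkag2-p.R299Q, and with members thinned it was 1.959 for Myh6-R404Q, all under the call. Rarres2 was the 1 called gene of the 4 tested, against 0.961% of all tested genes called higher for Myh6-R404Q and 1.14% for Prkag2-p.R299Q, and the synthesis enzymes stayed within 1.19-fold of WT.

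Other genes called higher had varied products. Igfbp6, a binding protein with preference for IGF-II, had 1676 UMIs or 712 CPM (95% interval 679 to 747) in Myh6-R404Q members, 858 UMIs or 642 CPM (95% interval 599.9 to 687) in Prkag2-p.R299Q members and 235 UMIs or 299.1 CPM (95% interval 262 to 339.8) in WT members, and its fold was 2.38 (2.08 to 2.74) for Myh6-R404Q and 2.15 (1.86 to 2.49) for Prkag2-p.R299Q. At exactly 2 markers the fold of Igfbp6 was 1.74 for Myh6-R404Q and 1.81 for Prkag2-p.R299Q, under the call, as it was with members thinned at 1.84 for Myh6-R404Q, and for Prkag2-p.R299Q at 1.91 without doublets and 1.63 with all 3 markers. Fabp5, a fatty acid carrier, had 229 CPM in Myh6-R404Q members, 248 CPM in Prkag2-p.R299Q members and 73.8 CPM in WT members, with folds of 3.11 (2.37 to 4.15) for Myh6-R404Q and 3.37 (2.54 to 4.53) for Prkag2-p.R299Q. Trf, or transferrin, had 227 CPM in Myh6-R404Q members, 174 CPM in Prkag2-p.R299Q members and 71.3 CPM in WT members. Ctsl, the lysosomal protease cathepsin L, had 153 CPM in Myh6-R404Q members, 169.9 CPM in Prkag2-p.R299Q members and 53.4 CPM in WT members. The mutant libraries lay close together for these genes and WT lay below both. Wfdc2, a whey acidic protein family member known as HE4, had 75.6 CPM in Myh6-R404Q members, 80.1 CPM in Prkag2-p.R299Q members and 22.9 CPM in WT members, and Tmem176a had 108 CPM in Myh6-R404Q members, 111 CPM in Prkag2-p.R299Q members and 35.6 CPM in WT members. Lgals1, or galectin 1, had 55.2 CPM in Myh6-R404Q members, 77.1 CPM in Prkag2-p.R299Q members and 15.3 CPM in WT members, where WT rests on 12 UMIs, with folds of 3.62 (2.002 to 7.18) for Myh6-R404Q and 5.05 (2.77 to 10.1) for Prkag2-p.R299Q. Ecm1, an extracellular matrix protein, and Itm2a, a membrane protein, were also among the 10 highest called folds for Myh6-R404Q, at 3.93-fold and 3.63-fold.

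Some higher calls were seen against WT in 1 mutant library alone. Crip1, a small LIM protein, had 703 CPM in Myh6-R404Q members, 986 CPM in Prkag2-p.R299Q members and 383 CPM in WT members and was called in Prkag2-p.R299Q at 2.57 (2.27 to 2.93), while its fold in Myh6-R404Q was 1.83 (1.62 to 2.08). Gpx3, the secreted glutathione peroxidase, had 257 CPM in Myh6-R404Q members, 505 CPM in Prkag2-p.R299Q members and 252 CPM in WT members, called in Prkag2-p.R299Q at 2.005-fold and at 1.02-fold for Myh6-R404Q. Lgals7, an epithelial galectin, had 63.7 CPM in Myh6-R404Q members, 132 CPM in Prkag2-p.R299Q members and 63.6 CPM in WT members, and in members with all 3 markers it was at 0.76-fold of WT for Prkag2-p.R299Q. Txnip, a glucose-responsive thioredoxin inhibitor, had 461 CPM in Myh6-R404Q members, 354 CPM in Prkag2-p.R299Q members and 204 CPM in WT members, called in Myh6-R404Q at 2.26-fold. Txnip was 2.10-fold of WT in all other Myh6-R404Q barcodes as well. A call in 1 library and not in the other is no test of a difference between them.

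Lower calls among genes that members hold above the rest were few, 7 in Myh6-R404Q members and 3 in Prkag2-p.R299Q members. Sema3e, a semaphorin that repels endothelial cells, had 146 CPM in Myh6-R404Q members, 195 CPM in Prkag2-p.R299Q members and 309 CPM in WT members, with a fold of 0.47 (0.40 to 0.56) for Myh6-R404Q, which was called, and of 0.63 (0.53 to 0.76) for Prkag2-p.R299Q, which was not. All other barcodes had 9.26 CPM in the Myh6-R404Q library, 7.82 CPM in the Prkag2-p.R299Q library and 9.36 CPM in the WT library. Has1, a hyaluronan synthase, had 56.5 CPM in Myh6-R404Q members, 155 CPM in Prkag2-p.R299Q members and 113 CPM in WT members. Has1 was called lower in Myh6-R404Q at 0.50 (0.38 to 0.66) and had a fold of 1.37 (1.06 to 1.77) for Prkag2-p.R299Q. Chrd, the BMP antagonist chordin, had 68.0 CPM in Myh6-R404Q members, 106 CPM in Prkag2-p.R299Q members and 137 CPM in WT members. Far2 and Kctd8 completed the calls made in Myh6-R404Q alone, and Kctd8 was at 1.54-fold of WT in members with all 3 markers. Parm1 and Ranbp3l were called in both, with Ranbp3l at 0.26-fold for Myh6-R404Q and 0.23-fold for Prkag2-p.R299Q, from 33 UMIs in Myh6-R404Q members, 17 UMIs in Prkag2-p.R299Q members and 43 UMIs in WT members. Dok6 had 103 CPM in Myh6-R404Q members, 83.1 CPM in Prkag2-p.R299Q members and 178 CPM in WT members and was called in Prkag2-p.R299Q at 0.47-fold.

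**Figure D4:**
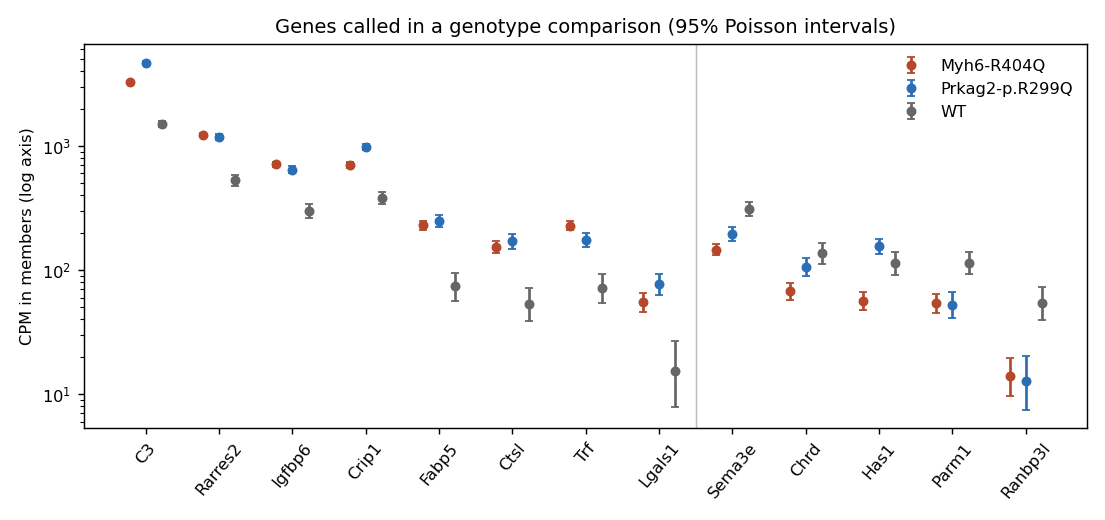
Level in members (CPM, log axis) of 13 genes called in at least 1 genotype comparison, with points for Myh6-R404Q, Prkag2-p.R299Q and WT and 95% Poisson intervals for counting error. To the left of the grey line, WT lies below both mutant libraries, as for C3 at 1498 CPM; to the right, Myh6-R404Q lies below WT, and Prkag2-p.R299Q lies above WT for Has1.

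None of 9 tested Hippo pathway genes and YAP targets was called in either comparison, with medians of -0.18 for Myh6-R404Q and -0.22 for Prkag2-p.R299Q, and Tead1 had 482 CPM in Myh6-R404Q members, 453 CPM in Prkag2-p.R299Q members and 531 CPM in WT members. Of the secreted growth and guidance factors, 0 of 16 were called higher and 2 of 16 lower in each mutant library, against 0.742% of all tested genes called lower for Myh6-R404Q and 1.25% for Prkag2-p.R299Q; these were Sema3e for Myh6-R404Q, Vegfa, the endothelial growth factor, for Prkag2-p.R299Q, and for both Fgf14, an FGF homologue that stays inside the cell and binds sodium channels. With doublets removed, Fgf14 in Myh6-R404Q members was instead at 1.22-fold of WT, and in members with all 3 markers it was at 3.19-fold for Myh6-R404Q and 2.77-fold for Prkag2-p.R299Q. Slit3, a guidance ligand, had 2959.6 CPM in Myh6-R404Q members, 2348 CPM in Prkag2-p.R299Q members and 2954 CPM in WT members. Sema3d had 822 CPM in Myh6-R404Q members, 981 CPM in Prkag2-p.R299Q members and 958 CPM in WT members. Of the interferon response and MHC class I genes, 0 of 10 were called, yet all 10 were above WT in Myh6-R404Q and 9 of 10 in Prkag2-p.R299Q, with medians of 0.36 for Myh6-R404Q and 0.39 for Prkag2-p.R299Q on the log2 scale, against 0.0026 and -0.017 over all genes tested. Outside that list, and picked out after the values were seen, H2-T23, a nonclassical class I gene, was called higher in both. Its fold was 2.71 (1.61 to 4.89) for Myh6-R404Q and 2.79 (1.61 to 5.13) for Prkag2-p.R299Q, over 20.4 CPM in WT members. The interferon-induced gene Iigp1 was called higher at 2.69-fold for Myh6-R404Q, and Ifitm3 at 2.75-fold and Ifi27l2a at 2.76-fold for Prkag2-p.R299Q. H2-K1, a class I heavy chain, had 498 CPM in Myh6-R404Q members, 551 CPM in Prkag2-p.R299Q members and 339.8 CPM in WT members. For genes of mesenchymal transition and TGF-beta, 0 of 12 were called in Myh6-R404Q and 1 of 11, Ltbp1, was called lower in Prkag2-p.R299Q. All tested genes had 0.961% called higher and 0.742% lower for Myh6-R404Q, and 1.14% and 1.25% for Prkag2-p.R299Q. With such shares, 0 or 1 call in lists of 9 to 12 tested genes says little. Col3a1, a fibrillar collagen, had 2057 CPM in Myh6-R404Q members, 1374 CPM in Prkag2-p.R299Q members and 1214 CPM in WT members, with a fold of 1.69 (1.58 to 1.82) for Myh6-R404Q.

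Of the glucose and lipid genes, 2 of 11 were called higher and 1 lower in Myh6-R404Q, against 0.961% and 0.742% of all tested genes, and 1 of 11 higher and 2 lower in Prkag2-p.R299Q, against 1.14% and 1.25%. The genes called higher were Txnip and Fabp5, and those called lower were Ppargc1a in both mutant libraries and Lpl in Prkag2-p.R299Q. In members with all 3 markers Ppargc1a was instead at 1.01-fold of WT for Myh6-R404Q and 1.21-fold for Prkag2-p.R299Q. Of 7 tested oxidative stress genes, Gstm1 was called higher in Myh6-R404Q and Gpx3 in Prkag2-p.R299Q, against 0.961% and 1.14% of all tested genes.

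Stress, clock and cycle lists had 1 called gene. Heat shock genes had 0 calls of 10 and a summed level of 1664 CPM in Myh6-R404Q members, 1863 CPM in Prkag2-p.R299Q members and 1760 CPM in WT members. Immediate early genes, which dissociation is known to induce, summed to 601 CPM in the Myh6-R404Q library, 720.0 CPM in the Prkag2-p.R299Q library and 673 CPM in the WT library, and Dusp1 alone was called, lower in both mutant libraries. With the rule applied after thinning, Dusp1 was at 1.04-fold of WT for Myh6-R404Q. Circadian genes had 0 calls of 11. Since 0.742% to 1.25% of all tested genes were called per direction and comparison, 0 calls in the heat shock and circadian lists say little. Proliferation genes were at low levels, and their sum over 14 genes was 14.4 CPM in Myh6-R404Q members, 63.6 CPM in Prkag2-p.R299Q members and 20.4 CPM in WT members. All other barcodes had 72.1 CPM in the Myh6-R404Q library, 37.3 CPM in the Prkag2-p.R299Q library and 21.0 CPM in the WT library, so members were above them in Prkag2-p.R299Q alone. None of the 14 genes reached the level for testing in either comparison. Top2a had a UMI in 1 of 642 Myh6-R404Q members, 3 of 319 Prkag2-p.R299Q members and 0 of 273 WT members. Cenpf had one in 4 of 642 Myh6-R404Q members, 1 of 319 Prkag2-p.R299Q members and 0 of 273 WT members. How the Prkag2-p.R299Q sum over all 14 genes was spread over members was not examined. Mki67 had a UMI in 2 of 642 Myh6-R404Q members, 2 of 319 Prkag2-p.R299Q members and 0 of 273 WT members, which by 3 counts allows up to 1.10% of WT members with a UMI and does not limit the share expressing the gene. In macrophage barcodes the share with a Mki67 UMI was 2.98% in the Myh6-R404Q library, 1.92% in the Prkag2-p.R299Q library and 0.655% in the WT library, at median depths of 1903 UMIs in the Myh6-R404Q library, 2317 UMIs in the Prkag2-p.R299Q library and 1537.5 UMIs in the WT library.

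Members differed from low-Msln barcodes in few genes, and all values are a description since markers chose both sets. Of 4054 genes tested, 18 (0.444%) were at least 2-fold higher in members in all 3 libraries and 1 (0.0247%), the macrophage receptor Mrc1, was 2-fold lower. The 18 included Krt8 and Krt18, C3 and C1ra, and Igfbp6, Rarres2, Crip1, Gpx3, Lgals7 and Fmod. Igfbp6 was 4.75-fold above low-Msln barcodes in the Myh6-R404Q library, 5.31-fold in the Prkag2-p.R299Q library and 3.46-fold in the WT library. C3 was above them by 3.15-fold in the Myh6-R404Q library, 4.12-fold in the Prkag2-p.R299Q library and 2.55-fold in the WT library. Genes called higher between genotypes overlapped with these 18. For Myh6-R404Q, 6 genes were in both, 33.3% of the 18 and 13.6% of the 44 calls. For Prkag2-p.R299Q, 11 were in both, 61.1% of the 18 and 21.2% of the 52 calls. Over all tested genes 0.961% were called higher for Myh6-R404Q, 1.14% for Prkag2-p.R299Q, and 0.444% were 2-fold above low-Msln barcodes. The median annotated span was 6.36 kb for the 18 genes, against 61.8 kb for the 4054 tested. Genes called higher between genotypes were also short, as given below, and the part of gene size in the overlap was not tested.

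The members varied among themselves beyond counting for some genes. After thinning to 1000 UMIs, leaving 607 Myh6-R404Q, 296 Prkag2-p.R299Q and 264 WT members, the variance of UMIs per member over their mean had a median of 1.09 over 1715 genes in each library. Ttn, Rbfox1 and Wdr17 had the highest ratios, ranked by the smallest of the 3 libraries. C3 had a ratio of 4.09 in the Myh6-R404Q library, 6.61 in the Prkag2-p.R299Q library and 3.18 in the WT library. The median member held 2 C3 UMIs in the Myh6-R404Q library, 3 in the Prkag2-p.R299Q library and 1 in the WT library, and the 90th percentile was 8 UMIs in the Myh6-R404Q library, 11 UMIs in the Prkag2-p.R299Q library and 4 UMIs in the WT library. No C3 UMI was found in 24.2% of Myh6-R404Q members, 19.6% of Prkag2-p.R299Q members and 45.1% of WT members. The order of the libraries was the same at the middle and at the upper end of the distribution.

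Igfbp5, another IGF binding protein, had 2851 CPM in Myh6-R404Q members, 3161 CPM in Prkag2-p.R299Q members and 1897 CPM in WT members and was not called, with a fold of 1.502 (1.42 to 1.59) for Myh6-R404Q and 1.67 (1.57 to 1.77) for Prkag2-p.R299Q. Its median per thinned member was 2 UMIs in Myh6-R404Q members, 2 UMIs in Prkag2-p.R299Q members and 1 UMI in WT members. Rbfox1 had a median of 13 UMIs in the Myh6-R404Q library, 15 in the Prkag2-p.R299Q library and 18 in the WT library, and was at 0 in 1.89% to 2.70% of members. Wdr17 had medians of 15 UMIs in the Myh6-R404Q library, 11 UMIs in the Prkag2-p.R299Q library and 11 UMIs in the WT library. The spread of Ttn, Myh6, Ryr2 and Fhl2, genes of cardiomyocytes, also stood high on this measure.

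**Figure D5:**
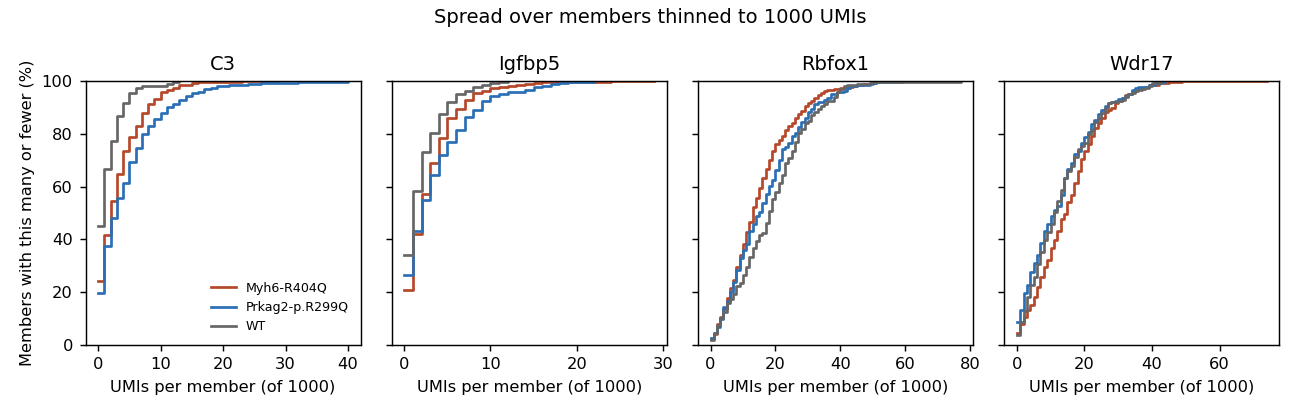
Cumulative share of members (%) by UMIs of C3, Igfbp5, Rbfox1 and Wdr17 after thinning each member to 1000 UMIs, with a line each for Myh6-R404Q, Prkag2-p.R299Q and WT. The C3 line starts at 24.2% of Myh6-R404Q members and 19.6% of Prkag2-p.R299Q members without a UMI, against 45.1% of WT members, and the WT line stays above both.

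RNA of genes listed for other cell types was present in members and differed between libraries. The 14 cardiomyocyte genes summed to 7994 CPM in Myh6-R404Q members, 7270.0 CPM in Prkag2-p.R299Q members and 11545 CPM in WT members, all 14 were detected in each, and all other barcodes held 29987 CPM in the Myh6-R404Q library, 32669 CPM in the Prkag2-p.R299Q library and 33991 CPM in the WT library. Ryr2 was the 1 cardiomyocyte gene called, lower at 0.42-fold for Myh6-R404Q and 0.36-fold for Prkag2-p.R299Q, and in all other barcodes it was 0.58-fold of WT in Myh6-R404Q and 0.88-fold for Prkag2-p.R299Q. In members the 12 endothelial genes summed to 1248 CPM in the Myh6-R404Q library, 1047 CPM in the Prkag2-p.R299Q library and 1550.0 CPM in the WT library. The 12 macrophage genes summed to 219 CPM in the Myh6-R404Q library, 207 CPM in the Prkag2-p.R299Q library and 321 CPM in the WT library. The 12 fibroblast genes summed to 4052 CPM in the Myh6-R404Q library, 3159.8 CPM in the Prkag2-p.R299Q library and 2652 CPM in the WT library. For these genes all other barcodes held less, with 3046 CPM in the Myh6-R404Q library, 2976 CPM in the Prkag2-p.R299Q library and 2487 CPM in the WT library. How much of the fibroblast sum is the members' own RNA was not tested. Of 9 endothelial genes tested, 4 were called lower in Prkag2-p.R299Q, against 1.25% of all tested genes, and Flt1 was lowest at 0.16-fold. Cd68 and Fcgr1 were at 0 in WT members, Fcgr1 was at 0 in Myh6-R404Q members, and the smooth muscle gene Cnn1 was at 0 in all 3.

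RNA quality and gene size moved with the calls too. Mitochondrial genes took 1.35% of Myh6-R404Q member UMIs, 1.32% of Prkag2-p.R299Q member UMIs and 1.78% of WT member UMIs. Malat1, a nuclear RNA, had 35267 CPM in Myh6-R404Q members, 38415 CPM in Prkag2-p.R299Q members and 31741 CPM in WT members. The median annotated span was 5.75 kb for genes called higher and 97.5 kb for genes called lower in Myh6-R404Q, against 57.7 kb for all tested. In Prkag2-p.R299Q it was 6.22 kb for genes called higher and 114 kb for genes called lower, against 57.4 kb for all tested. C3 spans 24.2 kb and Igfbp6 spans 5.15 kb. The part of cardiomyocyte RNA, RNA quality and gene size in these calls was not tested.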

How the data were processed

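Dissociated heart cells were profiled with the 10x Genomics 3′ kit v.3, per the labels' protocols, and aligned and counted with Cell Ranger 7.0.1 on mm10, per the submitters' processing notes. Raw UMI counts of 32285 genes per barcode were deposited by the authors. The matrix deposited for Myh6-R404Q held all 3 libraries; barcodes ending in 1 and 2 were entry for entry the Prkag2-p.R299Q and WT matrices, so those ending in 3 were used. UMIs were summed over members per library and scaled to CPM of the summed total, without ambient correction. With 1 library per genotype, shares have exact binomial, CPM exact Poisson and folds exact conditional binomial 95% intervals, and share ratios log-normal ones, which cover counting error only. A gene with no UMI is bounded by 3 counts over the set's UMIs.

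Low-Msln, fibroblast and macrophage barcodes were gated by marker UMIs. "All other barcodes" are neither members nor low-Msln. Members, gene lists and call rule were chosen with earlier results of these data known. Named genes are the 11 of the rule, the 4 most abundant and any called of each list, the 10 highest and 10 lowest called folds per comparison with at least the level of the rest, the 20 furthest above the rest, 12 each way against low-Msln barcodes and the 15 most variable. Some genes that this rule names are not reported here. Scanpy 1.11.5 with Scrublet marked doublets. The counting steps were tested on simulated data.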

Additional observations from a re-analysis of the deposited data

How the results depend on the processing

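No paired analysis was possible because each genotype has 1 library, and leaving out a replicate was not possible either. The ratio of member shares over WT stayed above 1 under every setting run, from 1.81 to 8.75 for Myh6-R404Q and from 1.23 to 7.03 for Prkag2-p.R299Q, with the lowest in the set chosen without the 3 markers after thinning. Requiring all 3 of Msln, Krt19 and Upk3b gave the highest, 8.75 and 7.03. Barcodes of at least 1000 UMIs gave 2.87 and 2.18, the set chosen without those 3 genes gave 2.17 and 1.43, and the Myh6-R404Q matrix as deposited, with all 3 libraries in it, gave 2.11.

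Counts of called genes depended on the level required and on who was a member. For Myh6-R404Q, 44 higher became 86 at 10 CPM, 26 with members thinned to 1000 UMIs, 16 at exactly 2 markers and 17 with the matrix as deposited; 34 lower became 82 at 10 CPM, 70 with all 3 markers, 52 with 0 UMIs of other-type genes, 21 without doublets, 21 in the set chosen without the 3 markers, 16 at 100 CPM and 12 with the matrix as deposited. For Prkag2-p.R299Q, 52 higher became 89 at 10 CPM, 34 with members thinned, 29 with all 3 markers and 26 at exactly 2; 57 lower became 126 at 10 CPM, 104 with 0 UMIs of other-type genes, 36 with members thinned, 35 in the set chosen without the 3 markers, 31 at 100 CPM, 30 with thinning before the rule and 23 without doublets. The 267 genes above the rest became 445 at 10 CPM. The 19 genes apart from low-Msln barcodes became 74 with all 3 markers, 36 at 10 CPM, 12 at 100 CPM and 11 with members thinned.

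Of 870 fold values of named genes under the alternatives, 733 kept within their counting interval, 125 moved beyond it and 12 crossed 1. Many of the 733 had little or no room to move. A CPM floor cannot change a fold and the scalings shift all folds by little, so all 73 values stayed under each of these. The matrix as deposited cannot change a Prkag2-p.R299Q fold. With thinning before the rule 29 kept within the interval, 35 moved beyond it and 4 crossed 1. With all 3 markers detected, Fgf14 was 3.19-fold of WT, Kctd8 1.54-fold and Ppargc1a 1.01-fold in Myh6-R404Q, and Fgf14 was 2.77-fold, Abca8a 1.43-fold, Ppargc1a 1.21-fold and Lgals7 0.76-fold in Prkag2-p.R299Q. With thinning before the rule, Dusp1 was 1.04-fold and Kif26b 0.93-fold in Myh6-R404Q, and Abca8a was 1.65-fold and Emcn 1.03-fold in Prkag2-p.R299Q. Without doublets Fgf14 was 1.22-fold in Myh6-R404Q. Of 30 named calls for Myh6-R404Q 12 held at exactly 2 markers and 23 without doublets. With all 3 markers 14 held, with members thinned 14, and with thinning before the rule 9. Of 43 for Prkag2-p.R299Q 22 held at exactly 2 markers and 23 without doublets. For that library 13 held with all 3 markers, 17 with members thinned, and 7 with thinning before the rule. The causes were not tested. Scaling by median-of-ratios or without mitochondrial and cardiomyocyte genes shifted all log2 values alike by 0.0027 and 0.012 for Myh6-R404Q and by -0.029 and 0.013 for Prkag2-p.R299Q.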
